A study of Mus musculus with 46 samples.

Results

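The carboxylesterases described here are 10 liver genes, Ces1b, Ces1c, Ces1d, Ces1e, Ces1f, Ces1g, Ces2a, Ces2e, Ces3a and Ces3b, taken from the probe sets whose platform symbol is exactly one of these names. Each of the 10 had 1 probe set among the 35512 on the array, and they are 10 of 19938 genes with a probe set of a single symbol. Livers came from 46 mice of the hairless stock SKH:QS, each on its own Affymetrix whole-transcript array. One experiment used virgin mice and a separate one used pregnant mice at about day 17 of gestation, here called gestation mice. In both, a sunscreen was put on the skin of the back 6 times over 4 days and liver was taken on day 5. The sunscreen held zinc oxide microparticles made from the isotope 68Zn (micro ZnO), nanoparticles of the same oxide (nano ZnO), or no particles (formulation), and the remaining arm was untreated. Each virgin arm had 6 mice. In gestation the formulation and nano ZnO arms had 6 mice each, and the untreated and micro ZnO arms had 5 each. The labels describe collars against licking for the mice in general, name no genetic modification and state no ages, and they do not say whether untreated mice were handled or painted with a blank.

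Carboxylesterases cut ester, amide and thioester bonds, and in liver most of them sit in the lumen of the endoplasmic reticulum, held there by a retrieval signal at the end of the protein. They hydrolyse drugs, pesticides and other foreign esters, and several also act on stored triacylglycerol and so feed lipid into very-low-density lipoprotein (VLDL). In the mouse the family has expanded by tandem duplication, so that single human genes correspond to rows of neighbouring mouse genes: the Ces1 genes include a secreted plasma enzyme, the Ces2 genes encode enzymes of liver and intestine, and the Ces3 genes form a small class of their own.

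The deposited values are log2 intensities, and every level below is on that scale, so a difference of 1 is a doubling of signal. Within each experiment the lowest correlation between any 2 arrays was 0.968 (virgin) and 0.971 (gestation). Array medians ran from 4.66 to 4.90 in virgin and from 3.98 to 4.12 in gestation mice, so levels were set across the experiments only after a common scaling. Replicates 3 and 4 of the gestation micro ZnO arm stood apart, with scores of -47.1 and -31.2 on the first principal component of that experiment, against -12.5 to 19.5 for the other arrays. Hepatocyte markers, 7 of 8 listed genes measured, had a mean level between 13.14 and 13.28 in every virgin liver and between 12.68 and 12.85 in every gestation liver. All 10 carboxylesterases lay between the 91.9th and the 99.6th percentile of mean probe set signal. Signals of different probe sets depend on their probes, so the genes are not ranked against each other here. The family members resemble each other in sequence, and whether a probe set also took up transcripts of a neighbouring member was not tested.

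All 10 genes lie on chromosome 8 in 2 clusters (gene order from RefSeq, assembly GRCm38.p6). The first holds Ces1b, Ces1c, Ces1d, Ces1e, Ces1f and Ces1g in that order and ends with Ces5a. The second, after 68 other protein-coding genes, starts with Ces2a and holds Ces2e, Ces3a and Ces3b further along. Other carboxylesterase genes lie among them, and the protein-coding genes inside each cluster are all carboxylesterases. Promoter windows of 300 bases, from 250 before to 50 after the annotated gene start, were found in RefSeq (GRCm38.p6) for 7 of the 10 members. Ces1d, Ces1f and Ces3a had no entry. The windows of 4 members that were lower after sunscreen in at least 2 virgin arms are shown (Ces3b, Ces2e and Ces2a, on the plus strand, and Ces1e, on the minus strand), with that of Ces1c, which was lower in none, for contrast. They lie at chr8:105083505-105083804 (Ces3b), chr8:104926010-104926309 (Ces2e), chr8:104733753-104734052 (Ces2a), chr8:93229570-93229869 (Ces1e) and chr8:93131234-93131533 (Ces1c, minus strand), and are written 5′ to 3′ along the gene. Capitals mark matches on either strand to TATAAA, to CCAAT, to TTATGNAA or to CAAAGNNCA.
Ces3b: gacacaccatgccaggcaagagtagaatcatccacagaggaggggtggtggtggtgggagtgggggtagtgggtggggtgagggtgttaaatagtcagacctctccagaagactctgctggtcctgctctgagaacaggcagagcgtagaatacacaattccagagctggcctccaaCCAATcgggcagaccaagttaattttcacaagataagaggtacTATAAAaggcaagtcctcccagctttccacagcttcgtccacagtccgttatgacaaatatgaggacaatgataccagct
Ces2e: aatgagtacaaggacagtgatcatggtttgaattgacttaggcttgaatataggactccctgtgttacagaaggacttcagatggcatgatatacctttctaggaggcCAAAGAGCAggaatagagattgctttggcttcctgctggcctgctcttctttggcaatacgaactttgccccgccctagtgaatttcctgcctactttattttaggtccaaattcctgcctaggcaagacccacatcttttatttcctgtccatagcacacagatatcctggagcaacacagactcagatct
Ces2a: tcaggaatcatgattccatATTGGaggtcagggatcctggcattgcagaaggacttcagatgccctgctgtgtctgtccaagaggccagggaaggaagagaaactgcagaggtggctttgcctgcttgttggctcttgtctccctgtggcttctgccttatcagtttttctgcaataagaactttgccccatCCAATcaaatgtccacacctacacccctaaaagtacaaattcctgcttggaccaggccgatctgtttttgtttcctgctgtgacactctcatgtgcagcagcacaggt
Ces1e: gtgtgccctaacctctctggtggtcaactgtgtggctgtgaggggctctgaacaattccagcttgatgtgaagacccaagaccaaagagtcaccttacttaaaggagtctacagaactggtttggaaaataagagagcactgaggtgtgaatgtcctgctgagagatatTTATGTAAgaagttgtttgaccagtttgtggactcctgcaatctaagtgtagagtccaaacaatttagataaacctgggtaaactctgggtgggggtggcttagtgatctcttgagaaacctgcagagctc
Ces1c: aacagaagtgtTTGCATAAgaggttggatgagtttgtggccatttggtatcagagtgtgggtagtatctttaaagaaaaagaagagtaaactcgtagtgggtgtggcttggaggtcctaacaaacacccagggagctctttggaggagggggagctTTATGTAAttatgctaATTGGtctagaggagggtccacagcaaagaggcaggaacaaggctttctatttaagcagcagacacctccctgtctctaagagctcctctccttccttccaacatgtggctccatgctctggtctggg

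The windows had a guanine and cytosine content between 44.7% (Ces2e) and 50.7% (Ces3b). TATAAA, the usual TATA box, occurred in 13.6% of all 32851 promoter windows. In Ces3b it stood 30 bases before the start, and in Ces1g, on the opposite strand, 26 bases before it. CCAAT occurred in 37.4% of all windows and in 6 of 8 member windows, counting every window of Ces1b. On either strand it was present in Ces1b, Ces1c, Ces1g, Ces2a and Ces3b. The match nearest before the start stood at 73 bases in Ces3b, 58 in Ces2a, 78 in Ces1c and 58 in Ces1g. TTATGNAA, the form of site bound by the clock-controlled factors DBP, TEF and HLF and by NFIL3, occurred in 3.38% of all windows. It was present in Ces1b, Ces1c, Ces1e and Ces1g, with a match 81 bases before the start in Ces1e and 94 before it in Ces1c, and these letters were not in the windows of Ces2a, Ces2e and Ces3b. CAAAGNNCA, part of the site of the hepatocyte factor HNF4A, occurred in 6.36% of all windows and stood 142 bases before the start of Ces2e. Of 13 motifs searched on both strands, 5 were in no member's window: TGACNNNGC (12.4% of all windows), TTCNNNGAA (8.3%), CACGTG (7.15%), TGTTTAC (3.65%) and TGANTCA (7.81%). The remaining 4 were AGGTCA (16.3% of all windows, in Ces2a), AGTTCA (14%, in Ces1b), GTTAAT (7.1%, in Ces3b, 56 bases before the start) and TTNNGNAA (40.7%, in all 7 members), which contains every TTATGNAA match. Neighbouring genes resembled each other unequally. The windows of Ces1b and Ces1c matched at 254 of 297 aligned positions, those of Ces2a and Ces2e at 69 of 97, and the best local match of Ces3b to Ces2e was 16 positions long.

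Ces3a and Ces3b, the CES3-type esterases of liver, showed the largest falls of the 10 genes in virgin mice given formulation, and Ces3a also with micro ZnO. Ces3a ranged from 11.27 to 12.18 (median 11.70) in untreated virgin liver. It ranged from 10.15 to 10.78 (median 10.41) with formulation, from 10.08 to 10.86 (median 10.71) with micro ZnO and from 10.46 to 11.27 (median 10.93) with nano ZnO. No formulation or micro ZnO mouse reached the lowest untreated mouse, while 1 of 6 nano ZnO mice did. Against untreated mice Ces3a fell by 1.33 ± 0.15 (SE) with formulation, to 39.7% of the untreated signal (limma, adjusted p = 4.34e-06). It fell by 1.14 ± 0.15 with micro ZnO (adjusted p = 1.06e-04) and by 0.87 ± 0.15 with nano ZnO (adjusted p = 9.21e-04). Adjusted p values here and below are from limma with Benjamini-Hochberg adjustment over 23410 probe sets with a gene symbol, and a gene is called at an adjusted p under 0.05. In whole liver, fewer cells of a type and less RNA per cell cannot be told apart.

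Ces3b, the neighbour of Ces3a, had the same order of arm means. It ranged from 10.38 to 11.07 (median 10.62) in untreated virgin mice. With formulation its mean was 9.47 ± 0.27 (SD, n = 6), with a median of 9.57 and a highest value of 9.75. It ranged from 9.68 to 9.99 (median 9.82) with micro ZnO and from 9.55 to 10.22 (median 10.01) with nano ZnO. None of the 18 sunscreen-treated virgin mice reached the lowest untreated mouse. The fall was 1.18 ± 0.12 with formulation, to 44.0% of untreated (adjusted p = 8.63e-07), 0.83 ± 0.12 with micro ZnO, to 56.3% (adjusted p = 3.49e-04), and 0.73 ± 0.12 with nano ZnO, to 60.2% (adjusted p = 5.98e-04).

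**Figure D1:**
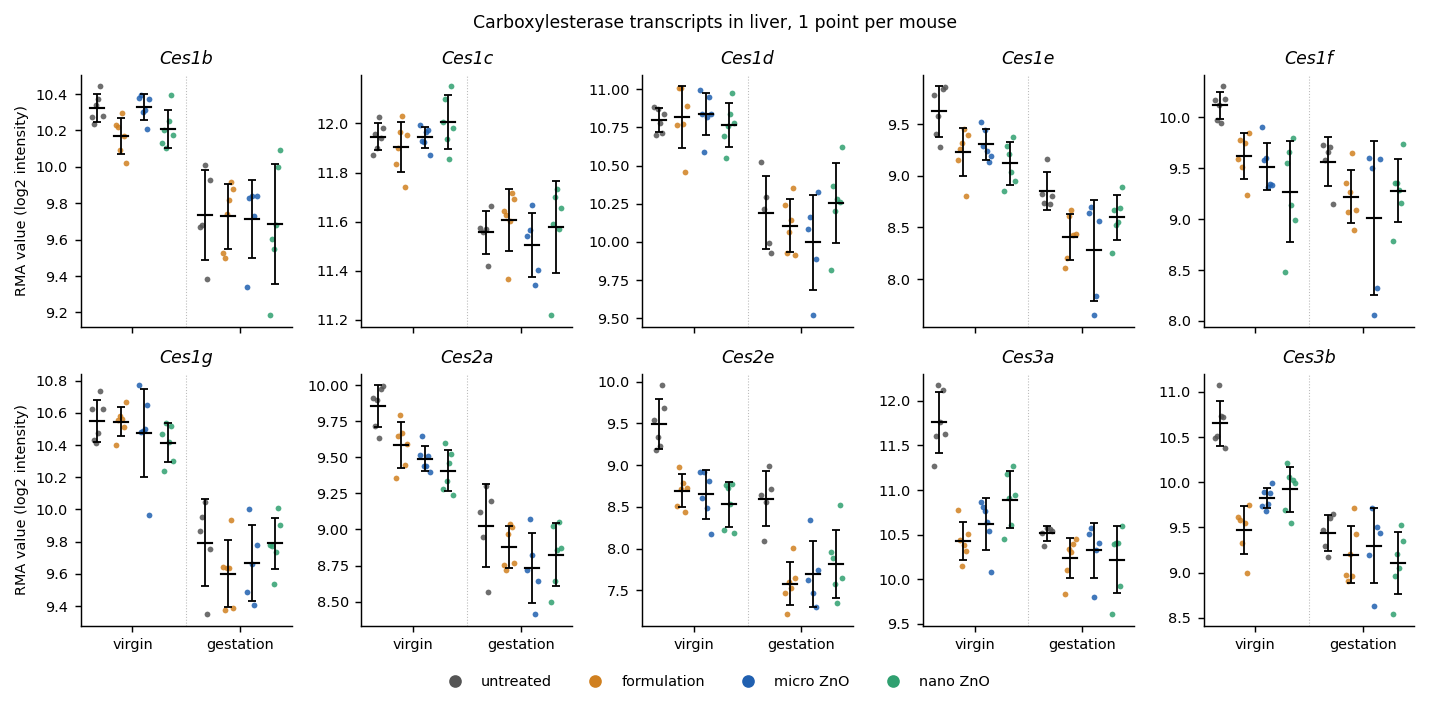
Log2 RMA values of the 10 carboxylesterases, 1 point per mouse, by experiment and arm; horizontal lines and bars are the mean and SD of each arm, and each panel has its own vertical axis. Values are as deposited, with array medians of 4.66 to 4.90 in virgin and 3.98 to 4.12 in gestation mice, so heights are not comparable between the experiments. In virgin mice all 18 treated points of Ces2e and of Ces3b lie below the lowest untreated point, while the arms of Ces1c, Ces1d and Ces1g overlap.

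Both Ces2 genes were lower in all 3 treated virgin arms, Ces2e by more than Ces2a. Ces2e ranged from 9.19 to 9.96 (median 9.44) in untreated virgin mice, from 8.43 to 8.98 (median 8.72) with formulation, from 8.17 to 8.92 (median 8.70) with micro ZnO and from 8.18 to 8.77 (median 8.63) with nano ZnO. No treated mouse overlapped the untreated arm. Ces2e fell by 0.80 ± 0.14 (adjusted p = 3.87e-04), 0.84 ± 0.14 (adjusted p = 0.00107) and 0.96 ± 0.14 (adjusted p = 1.93e-04) in the formulation, micro ZnO and nano ZnO arms. Here the arm with the lowest mean was nano ZnO, not formulation as for the Ces3 genes, but none of the 3 differences between treated arms was called for Ces2e. Ces2a ranged from 9.64 to 9.99 (median 9.91) in untreated mice, from 9.35 to 9.79 (median 9.62) with formulation, from 9.40 to 9.64 (median 9.48) with micro ZnO and from 9.24 to 9.60 (median 9.40) with nano ZnO. The nano ZnO arm lay wholly below the untreated arm, while 3 of 6 formulation mice and 1 of 6 micro ZnO mice reached it. Ces2a fell by 0.27 ± 0.08 (adjusted p = 0.0158), 0.36 ± 0.08 (adjusted p = 0.0106) and 0.45 ± 0.08 (adjusted p = 0.00113).

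Among the Ces1 genes, Ces1e and Ces1f moved. Ces1f, a triacylglycerol hydrolase of the endoplasmic reticulum, ranged from 9.95 to 10.31 (median 10.14) in untreated virgin mice. It ranged from 9.24 to 9.84 (median 9.67) with formulation, from 9.32 to 9.90 (median 9.46) with micro ZnO and from 8.48 to 9.80 (median 9.34) with nano ZnO. All 18 treated mice lay below the lowest untreated mouse, and the nano ZnO arm was the most spread, with an SD of 0.49 against 0.14 in untreated mice. The falls were 0.50 ± 0.16 (adjusted p = 0.0216), 0.60 ± 0.16 (adjusted p = 0.0274) and 0.85 ± 0.16 (adjusted p = 0.00142). The first was no longer called without formulation replicate 5 (-0.42), and the second was lost on leaving out any one of micro ZnO replicates 4, 5 and 6 or untreated replicates 1 and 5, with differences from -0.68 to -0.56 over all 12 arrays left out in turn.

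Ces1e encodes egasyn, which holds the lysosomal enzyme beta-glucuronidase in the endoplasmic reticulum. It ranged from 9.27 to 9.86 (median 9.68) in untreated virgin mice, from 8.81 to 9.46 (median 9.29) with formulation, from 9.13 to 9.52 (median 9.26) with micro ZnO and from 8.85 to 9.38 (median 9.12) with nano ZnO. Every treated arm overlapped the untreated one, although all 18 treated mice lay below the untreated mean of 9.62. Ces1e fell by 0.39 ± 0.11 with formulation (adjusted p = 0.0138) and by 0.50 ± 0.11 with nano ZnO (adjusted p = 0.00590). With micro ZnO the difference was -0.32 ± 0.11 (adjusted p = 0.105) and was not called. Gusb, the gene of beta-glucuronidase, named here after its values were seen, differed by -0.05 ± 0.08 (adjusted p = 0.642), -0.01 ± 0.08 (adjusted p = 0.950) and -0.13 ± 0.08 (adjusted p = 0.265) in the formulation, micro ZnO and nano ZnO arms.

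The other 4 Ces1 genes were called in none of the 3 virgin arms. Ces1c, the carboxylesterase that mice secrete into plasma, ranged from 11.87 to 12.02 in untreated virgin mice and from 11.74 to 12.15 across the treated ones. Its differences were -0.04 with formulation (95% interval -0.17 to 0.08), -0.00 with micro ZnO (-0.13 to 0.12) and 0.06 with nano ZnO (-0.07 to 0.18). Ces1d, the main triacylglycerol hydrolase of the family and a supplier of lipid for VLDL, differed by 0.02 (-0.16 to 0.20), 0.04 (-0.14 to 0.22) and -0.03 (-0.21 to 0.15). Ces1g, another lipid-handling member, differed by -0.00 (-0.20 to 0.19), -0.08 (-0.27 to 0.12) and -0.14 (-0.33 to 0.06). Ces1b differed by -0.15 with formulation (-0.28 to -0.03, adjusted p = 0.0678), 0.00 with micro ZnO (-0.12 to 0.13) and -0.11 with nano ZnO (-0.24 to 0.01). For these 4 genes the lower bounds lie above the differences estimated for Ces2e, Ces3a and Ces3b in the same arm.

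In numbers, with formulation 6 of 10 members were lower and 0 higher, against 15.0% of all probe sets called lower. With micro ZnO 5 of 10 were lower and 0 higher (2.80% of all probe sets lower), and with nano ZnO 6 of 10 were lower and 0 higher (7.18% lower). In each of these arms 4 members lay wholly below the untreated arm, as did 6.69% of all probe sets with formulation, 2.26% with micro ZnO and 3.22% with nano ZnO. The median difference over the 10 members was -0.33, -0.34 and -0.48, while the median over all tested probe sets was 0.03, 0.01 and 0.02. These shares and medians include dim probe sets, while the members are bright. With the dimmest 40% left out, 5773, 1379 and 3092 probe sets were called, of which 2013, 481 and 1150 were higher. In those fits 7, 5 and 6 of the 10 members were called. More probe sets were lower than in the main fits although fewer were tested. The shares lower among brighter probe sets therefore exceeded 15.0%, 2.80% and 7.18%, and the members stand out less against them. The median over the probe sets kept was then -0.05, -0.00 and -0.01, and the calls before were 6203, 1036 and 2796. The 3 comparisons share the 6 untreated virgin mice, so they are not independent of each other. The members and the other gene lists were chosen with earlier results of these data known. Their counts set against all probe sets, here and below, are therefore a description and not a test of the family. Of 6 other measured carboxylesterases, 1 was lower in each of these arms.

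**Figure D2:**
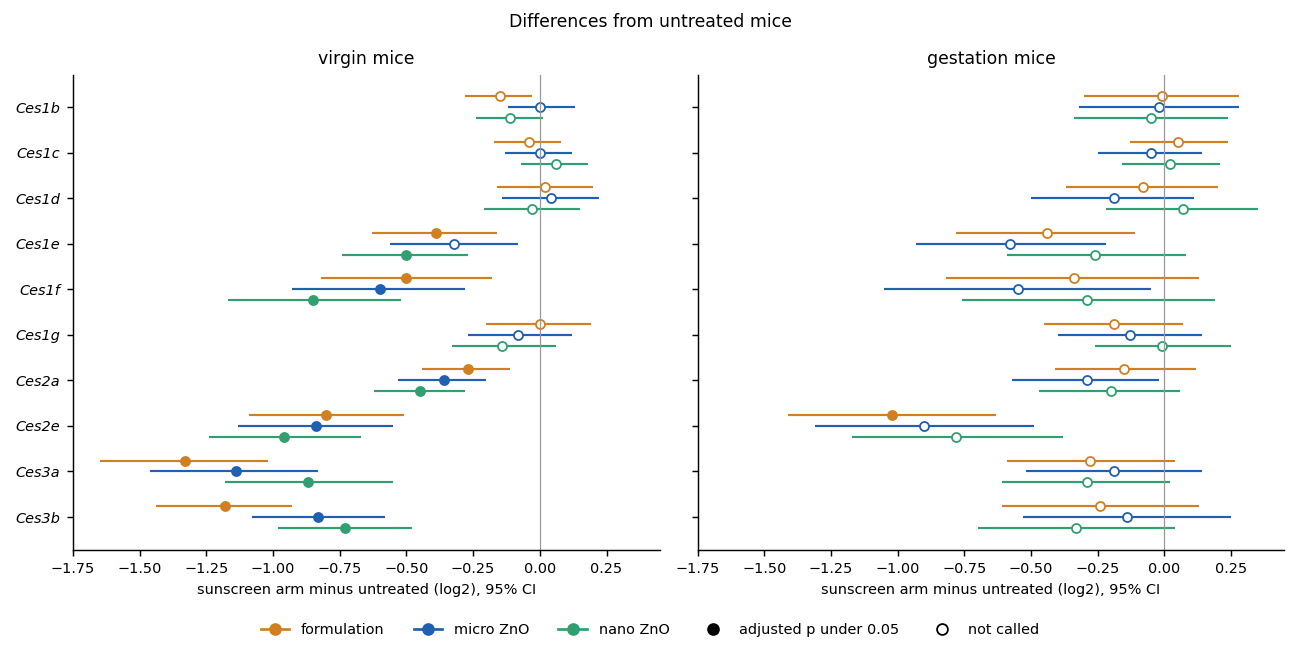
Log2 difference of each sunscreen arm from untreated mice for the 10 carboxylesterases, with 95% intervals from limma, in virgin mice (left) and gestation mice (right); filled points have an adjusted p under 0.05. In virgin mice the points of Ces3a reach -1.33 and those of Ces1c stay within 0.06 of 0, and in gestation mice the 1 filled point is Ces2e with formulation, at -1.02.

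Other measures moved with the virgin arms. A clock score, the mean log2 level of 9 genes that peak together (Dbp, Tef, Hlf, Nr1d1, Nr1d2, Per1, Per2, Per3 and Ciart) minus that of 3 measured genes in opposite phase (Arntl, Clock and Nfil3), was -1.31 ± 0.28 (SD, n = 6) in untreated mice. It was -0.28 ± 0.80 (SD, n = 6) with formulation, 0.79 ± 0.91 (SD, n = 6) with micro ZnO and 0.99 ± 0.25 (SD, n = 6) with nano ZnO. With this score as a covariate, Ces2e, Ces3a and Ces3b were still lower with formulation (-0.77, -1.36 and -1.07). In the micro ZnO and nano ZnO arms no member was then called, with Ces3a at -1.21 (adjusted p = 0.0509) and -0.94 (adjusted p = 0.289), Ces2e at -0.78 and -0.89, and Ces3b at -0.59 and -0.47. Calls over all probe sets also fell, from 6203 to 2255 with formulation, from 1036 to 29 with micro ZnO and from 2796 to 6 with nano ZnO. Neither the micro ZnO arm (-0.13 to 2.11) nor the nano ZnO arm (0.68 to 1.34) overlapped the untreated arm (-1.63 to -0.98) in the score, so a part of the clock score in those differences was not tested apart from the sunscreen.

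The interquartile range of the arrays also moved. Untreated virgin arrays lay between 2.90 and 3.09 (mean 2.97), and those given formulation lay between 2.76 and 2.89 (mean 2.83). With it as a covariate Ces2e (-0.90), Ces3a (-1.41) and Ces3b (-1.12) were still lower with formulation, while Ces1e (-0.28), Ces1f (-0.54) and Ces2a (-0.23) were not called. Calls over all probe sets with formulation fell from 6203 to 179 in that fit, so the lost calls are not particular to these genes. The untreated and formulation arrays did not overlap in interquartile range, so its part in these differences was not tested apart from the formulation. A further quantile normalization left the same 3 genes called, at -0.67, -1.28 and -1.09. Hepatocyte markers were called in no virgin arm (0 of 7). Of 12 endothelial markers, 8, 8 and 9 were called lower with formulation, micro ZnO and nano ZnO, against 15.0%, 2.80% and 7.18% of all probe sets lower. The mean endothelial level was 6.52 to 6.70 in untreated mice and 6.07 to 6.43, 6.14 to 6.39 and 6.13 to 6.43 in the treated arms. Of 12 neutrophil markers, 6 were higher with formulation, 0 with micro ZnO and 4 with nano ZnO, against 11.5%, 1.63% and 4.77% of all probe sets higher. Their mean level was 4.05 to 4.15 in untreated mice and 4.22 to 4.94, 3.91 to 4.40 and 4.26 to 5.44 in the treated arms. With the interquartile range as a covariate 0 endothelial and 1 neutrophil markers were called with formulation. The part of these markers in the carboxylesterase differences was not tested.

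The comparison of particle-containing sunscreens with the particle-free formulation asks what zinc oxide adds. In virgin mice Ces3b was higher with nano ZnO than with formulation, by 0.45 ± 0.12 (adjusted p = 0.0396), with all 6 nano ZnO mice above the formulation mean and 4 of 6 above every formulation mouse. It was the 1 member of 10 called there, against 2.52% of all probe sets called higher. This call was lost without any one of formulation replicates 2, 3 and 5 or nano ZnO replicates 2, 3, 5 and 6, with differences from 0.36 to 0.47 in those fits. Ces3a differed in the same comparison by 0.46 ± 0.15 (adjusted p = 0.0944). Ces1f at -0.35 ± 0.16 (adjusted p = 0.241) and Ces2a at -0.18 ± 0.08 (adjusted p = 0.254) went the other way. With nano ZnO 4 members had an unadjusted p under 0.05 against formulation, and 6 of 10 lay below 0, with a median of -0.08. With micro ZnO 0 of 10 members differed from formulation (6.83% of all probe sets called), and 2 had an unadjusted p under 0.05. The nearest was Ces3b, at 0.35 ± 0.12 (adjusted p = 0.0768). For Ces2e the intervals of the particle arms minus formulation were -0.33 to 0.25 (micro ZnO) and -0.45 to 0.13 (nano ZnO).

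Particle size made no called difference. Between nano ZnO and micro ZnO in virgin mice limma called 0 of 10 members and 0% of all probe sets, and 0 members had an unadjusted p under 0.05. The members' differences lay between -0.24 (Ces1f, interval -0.57 to 0.08) and 0.28 (Ces3a, interval -0.04 to 0.59). In gestation mice the same comparison called 0 of 10 members and 0% of probe sets, with 0 members at an unadjusted p under 0.05 and differences between -0.19 (Ces3b, interval -0.56 to 0.18) and 0.32 (Ces1e, interval -0.02 to 0.66). Particle arms minus formulation in gestation mice also called 0 of 10 members and 0% of all probe sets, for micro ZnO and for nano ZnO, with 0 members at an unadjusted p under 0.05 in either.

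In gestation mice Ces2e stood out. Its values were 8.64, 8.09, 8.56, 8.99 and 8.71 in the 5 untreated mice. With micro ZnO they were 7.63, 8.34, 7.47, 7.30 and 7.74. They ranged from 7.22 to 8.01 (median 7.57) with formulation and from 7.35 to 8.52 (median 7.76) with nano ZnO. All formulation mice lay below every untreated mouse, and 4 of 5 micro ZnO and 5 of 6 nano ZnO mice did. Ces2e fell by 1.02 ± 0.19 with formulation, to 49.4% of untreated (adjusted p = 0.0362). It differed by -0.90 ± 0.20 with micro ZnO (adjusted p = 0.0705) and by -0.78 ± 0.19 with nano ZnO (adjusted p = 0.215). The formulation call was lost in 9 of 11 fits with 1 array left out, with differences from -1.15 to -0.92 and called only without formulation replicate 5 or untreated replicate 2. The micro ZnO difference was called without micro ZnO replicate 2 (-1.06) or untreated replicate 2 (-1.03), and it was -0.70 (adjusted p = 0.739) without the 2 arrays that stood apart.

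Of the 10 members, 1 was lower with formulation in gestation mice, against 0.0214% of all probe sets lower. With micro ZnO 0 of 10 were called (0.107% of probe sets) and 4 had an unadjusted p under 0.05, and with nano ZnO 0 of 10 were called (0.0214% of probe sets) and 1 did. The median difference over the members was -0.22, -0.19 and -0.23, against 0.00, -0.00 and 0.01 over all tested probe sets. The 3 comparisons share the 5 untreated gestation mice. Ces1e in gestation mice had 8.83, 8.74, 9.17, 8.72 and 8.81 untreated and 8.64, 8.69, 7.65, 7.84 and 8.56 with micro ZnO, and it ranged from 8.10 to 8.67 with formulation. Neither of these treated arms overlapped the untreated one, but the differences of -0.44 ± 0.16 (formulation, adjusted p = 0.314) and -0.58 ± 0.17 (micro ZnO, adjusted p = 0.224) were not called. Ces1f with micro ZnO split into 9.60, 9.50 and 9.59 in replicates 1, 2 and 5 and 8.06 and 8.33 in replicates 3 and 4, the arrays that stood apart. Its difference from untreated was -0.55 ± 0.24 (adjusted p = 0.482), and -0.00 without them, and that of Ces1e was then -0.22.

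Of 12 neutrophil markers, 3 were higher in the gestation micro ZnO arm (Retnlg, S100a8 and S100a9, by 1.32, 2.23 and 1.94), where 0.107% of all probe sets were called. In the other gestation arms 0 neutrophil markers were called, and 0 of 12 endothelial markers were called in any gestation arm. The mean neutrophil level was 4.09 to 4.48 in untreated gestation mice and 4.38 to 4.89, 4.85 to 5.99 and 4.44 to 6.23 with formulation, micro ZnO and nano ZnO. The clock score of untreated gestation mice spread from -1.84 to 1.31, across most of the range of the treated ones. The part of either in the Ces2e values was not tested beyond the covariate fit, in which Ces2e with formulation was at -0.99 (adjusted p = 0.415).

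Ces3a and Ces3b, called lower in all 3 treated virgin arms, were called in no gestation arm. Ces3a had 10.52, 10.37, 10.58, 10.56 and 10.55 in untreated gestation mice, with an SD of 0.08, and 10.51, 10.57, 9.80, 10.33 and 10.40 with micro ZnO. It ranged from 9.84 to 10.45 with formulation and from 9.61 to 10.60 with nano ZnO, so that all treated arms overlapped the untreated one. The differences of Ces3a were -0.28 ± 0.15, -0.19 ± 0.16 and -0.29 ± 0.15, and those of Ces3b were -0.24 ± 0.18, -0.14 ± 0.19 and -0.33 ± 0.18, none of them called.

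The difference between the experiments was tested itself, as the response of gestation mice minus that of virgin mice in 1 fit of all 8 groups. For formulation it was 1.06 ± 0.23 for Ces3a (adjusted p = 0.0292), with all 6 formulation mice below the untreated mean in both experiments but by less in gestation. Ces3a was the 1 member of 10 called, against 0.0769% of all probe sets called higher, and 2 members had an unadjusted p under 0.05. The call was lost in 11 of 23 fits with 1 array left out (without virgin formulation replicate 3 or 5, virgin untreated replicate 3, 4 or 5, gestation formulation replicate 3, 4, 5 or 6, or gestation untreated replicate 1 or 2), with values from 0.97 to 1.15. Ces3b came to 0.94 ± 0.22 (adjusted p = 0.0641). For micro ZnO 0 of 10 members were called (0.0470% of probe sets), with Ces3a at 0.95 ± 0.23 (adjusted p = 0.127) and Ces3b at 0.69 ± 0.23 (adjusted p = 0.347). For nano ZnO 0 of 10 were called (0.0427% of probe sets), with Ces3a at 0.57 ± 0.23 (adjusted p = 0.687). Unadjusted p values under 0.05 numbered 2 for micro ZnO and 1 for nano ZnO. Ces2e, in contrast, gave -0.22 (interval -0.71 to 0.27), -0.06 (-0.57 to 0.44) and 0.18 (-0.31 to 0.67), so that a difference between its virgin and gestation responses was not detected.

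**Figure D3:**
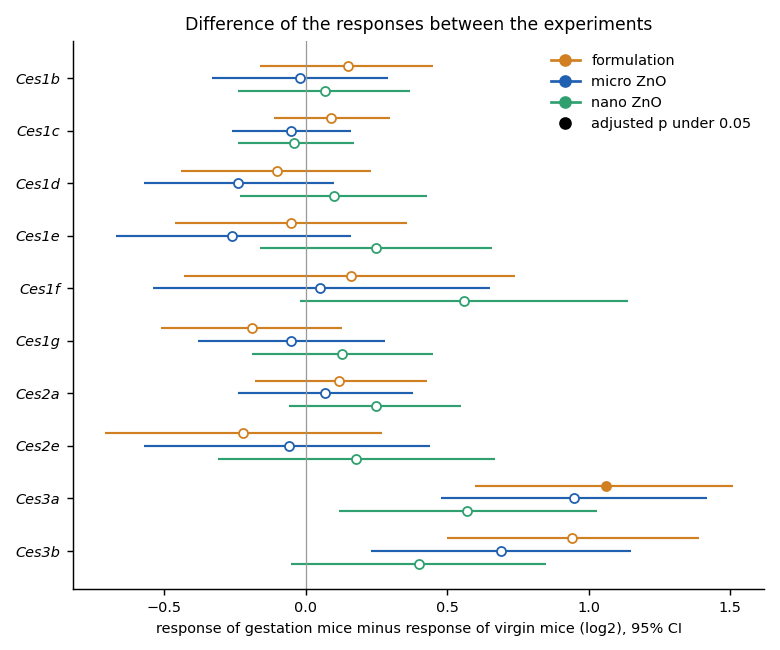
Response to each sunscreen in gestation mice minus the response in virgin mice (log2) for the 10 carboxylesterases, with 95% intervals from limma; the filled point has an adjusted p under 0.05. Ces3a and Ces3b lie to the right of 0 in all 3 arms, from 0.40 to 1.06, and the intervals of Ces2e include 0.

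Untreated livers of the 2 experiments were compared after quantile normalization of all 46 arrays together. Experiment and gestation cannot be told apart in this comparison. On this common scale the mean of Ces3a was 10.71 ± 0.07 (SD, n = 5) in gestation mice, against 11.54 ± 0.36 (SD, n = 6) in the virgin ones. Ces3b averaged 9.61 ± 0.20 (SD, n = 5) and 10.42 ± 0.26 (SD, n = 6). For both genes all 5 gestation mice lay below every virgin mouse. Ces3a was lower, at -0.83 ± 0.16 (adjusted p = 8.67e-05), and so was Ces3b, at -0.81 ± 0.15 (adjusted p = 6.81e-05). Ces2a at -0.38 ± 0.10 (adjusted p = 0.00403) and Ces1g at -0.33 ± 0.12 (adjusted p = 0.0288) were also lower, with overlap. In all, 4 of 10 members were lower and 0 higher, against 17.8% of all probe sets lower. Over all probe sets 3269 of 7442 calls were higher with this scaling. With each array centred on its median instead, which moved the median over all probe sets from -0.02 to 0.09, 6399 of 9248 calls were higher, Ces3a and Ces3b stayed lower (-0.55 and -0.52), Ces1g and Ces2a were no longer called and Ces1c was higher. Ces1g was also not called without virgin untreated replicate 1 or 5 or gestation untreated replicate 4 or 5.

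As a description over the 24 virgin arrays, which share the arms, Ces3a and Ces3b had a Pearson correlation of 0.89, Ces1e and Ces1f 0.88, and Ces2a and Ces2e 0.87. After subtraction of each arm's mean these were 0.53, 0.80 and 0.66, and Ces1e with Ces2e was 0.77. In the 22 gestation arrays the within-arm values were 0.62 for Ces3a with Ces3b, 0.83 for Ces1e with Ces1f and 0.33 for Ces2a with Ces2e. Ces3b with Ces2e was 0.10 in virgin and 0.51 in gestation arrays. Arrays of 1 experiment also share their normalization, and the arrays that stood apart are in the gestation values.

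**Figure D4:**
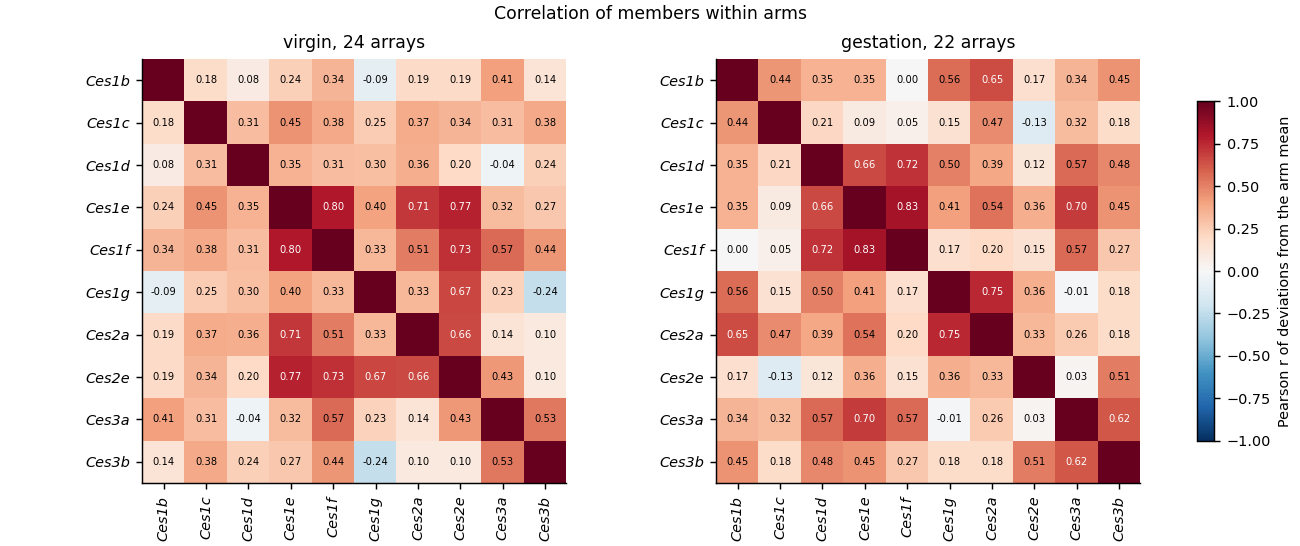
Pearson correlation of each pair of carboxylesterases over arrays after subtraction of the arm mean, in virgin mice (24 arrays) and gestation mice (22 arrays), from blue at -1 to red at 1. Ces1e with Ces1f is at 0.80 and 0.83, and Ces3a with Ces3b at 0.53 and 0.62.

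The genes whose pattern was most like Ces3b, the member with the smallest p in the virgin comparisons, over 46 arrays after subtraction of each experiment's mean were Ces3a (Pearson r = 0.83), Xiap (0.82), Ugt2b37 (0.81), Hsd3b2 (0.81) and Nudt7 (0.81). For Ces2e, the member with the smallest p in gestation mice, they were the fatty acid elongase Elovl5 (0.82), malic enzyme Me1 (0.82), the mitochondrial thiolase Acat1 (0.81), the aquaporin Aqp8 (0.81) and the peroxisomal enzyme Ehhadh (0.81). These are the highest of 19938 genes and are a description. Arm means were not subtracted, so differences shared by the arms enter these values. In virgin and gestation arrays taken apart, r with Ces3b was 0.89 and 0.67 for Ces3a and 0.83 and 0.79 for Xiap. It was 0.85 and 0.78 for Ugt2b37, 0.92 and 0.53 for Hsd3b2, and 0.88 and 0.61 for Nudt7. For the genes named with Ces2e it ran from 0.72 to 0.92 in virgin and from 0.70 to 0.89 in gestation arrays.

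Of 10 other carboxylesterase genes listed, 6 had a probe set (Ces1a, Ces2b, Ces2f, Ces2g, Ces4a and Ces5a). Ces2g, which lies between Ces2e and Ces3a, was lower in all 3 virgin arms, at -0.40 ± 0.10 (adjusted p = 0.00497), -0.49 ± 0.10 (adjusted p = 0.00581) and -0.59 ± 0.10 (adjusted p = 6.63e-04) with formulation, micro ZnO and nano ZnO. The other 5 were called in no arm of either experiment. Their virgin untreated means lay between 4.19 and 4.97, near the array medians. Along the chromosome the genes called in the first cluster were the adjacent Ces1e and Ces1f. In the second cluster Ces2a, Ces2e, Ces2g, Ces3a and Ces3b were called in all 3 virgin arms, and Ces2b, Ces2f and Ces4a in none. With the clock score as a covariate Ces2g was called in none of the 3, and with the interquartile range it was not called with formulation.

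**Figure D5:**
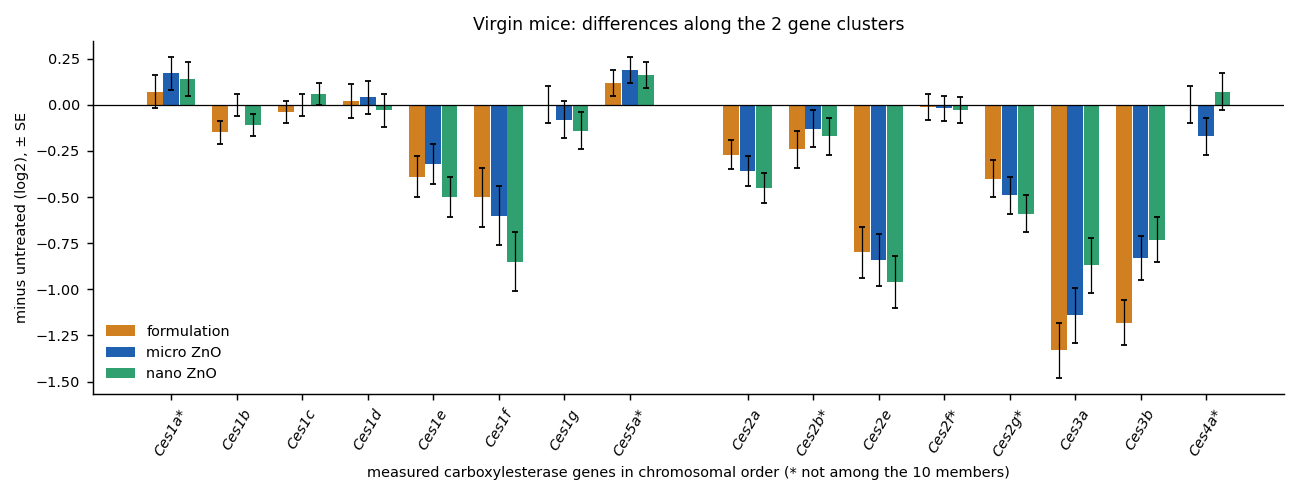
Log2 difference from untreated of each virgin sunscreen arm, with SE, for the 16 measured carboxylesterase genes in their chromosomal order, with a gap between the clusters; asterisks mark the 6 genes outside the 10 members. The lowest bars are Ces3a at -1.33 and Ces3b at -1.18 with formulation, and the bars of Ces1a and Ces5a lie at or above 0.07.

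Of other enzymes that cut esters, 19 of 20 listed were measured. With formulation 10 were lower and 1 higher, with micro ZnO 0 lower and 1 higher, and with nano ZnO 3 lower and 1 higher. Over all probe sets 15.0%, 2.80% and 7.18% were lower in these arms, and 11.5%, 1.63% and 4.77% higher. Aadac, a deacetylase that also hydrolyses drugs, was at -0.42 (adjusted p = 4.31e-04), -0.25 (adjusted p = 0.0580) and -0.35 (adjusted p = 0.00380). Lipa, lysosomal acid lipase, was at -0.48 with formulation (adjusted p = 5.70e-04). Pnpla2, adipose triglyceride lipase, was at 0.64 with nano ZnO (adjusted p = 0.00693). With the interquartile range as a covariate 0 of the 19 were called with formulation, and after a further quantile normalization 5 were lower and 1 higher. Calls over all probe sets in these fits were 179 and 3971, against 6203 in the main fit.

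VLDL assembly and lipid droplet genes, 14 measured of 14, had 8 lower and 0 higher with formulation, 2 lower and 1 higher with micro ZnO, and 3 lower and 1 higher with nano ZnO. Fitm1, which helps to form lipid droplets, was at -0.79, -0.73 and -0.61 (adjusted p = 6.31e-04, 0.00545 and 0.00882). Pltp, the phospholipid transfer protein, was at -0.49, -0.52 and -0.50 (adjusted p = 0.00282, 0.00817 and 0.00555). Dgat2, the last enzyme of triacylglycerol synthesis, was higher with micro ZnO, at 0.32 (adjusted p = 0.0332). Genes for folding and retention in the endoplasmic reticulum, listed together with Gusb, were measured for 7 of 8. Of these, 5 were lower with formulation, 1 with micro ZnO and 3 with nano ZnO, and 0 were higher. The shares of all probe sets lower, which bear on both lists, were 15.0%, 2.80% and 7.18%. Pdia6, a protein disulphide isomerase, was at -0.64, -0.45 and -0.63 (adjusted p = 6.12e-04, 0.0298 and 0.00157), and Kdelr1, a receptor that retrieves escaped proteins to the endoplasmic reticulum, was at -0.32 with formulation (adjusted p = 0.00414). With the interquartile range as a covariate the formulation counts were 1 lower of 14 and 0 of 7, with 179 of all probe sets called.

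Transcription factors known to act on carboxylesterase genes, 12 measured of 12, had 5 lower and 1 higher with formulation and 1 higher with each particle sunscreen. Over all probe sets 15.0% were lower and 11.5% higher with formulation, and 1.63% and 4.77% were higher with micro ZnO and nano ZnO. Nr1h3 (liver X receptor alpha) was at -0.37 (adjusted p = 0.00235), Nr1h4 (the bile acid receptor) at -0.39 (adjusted p = 0.00266) and Nfe2l2 (NRF2) at -0.37 (adjusted p = 0.00429) with formulation. After a further quantile normalization 2 were lower and 2 higher there. Nr1i3, the constitutive androstane receptor, was higher with micro ZnO, at 0.66 (adjusted p = 0.00229), and with nano ZnO, at 0.61 (adjusted p = 0.00272). Of 11 measured target genes of these receptors 0 were called with formulation, and 2 were higher with each particle sunscreen. These were Abcc2, a canalicular export pump (0.37 and 0.42, adjusted p = 0.0250 and 0.00556), and the fatty acid hydroxylase Cyp4a14 (2.34 and 1.53, adjusted p = 0.00125 and 0.0153). In gestation mice 0 genes of any of these lists were called in any sunscreen arm against untreated.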

How the data were processed

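RNA from whole liver was measured on Affymetrix whole-transcript arrays, 1 per mouse, in 46 mice. The authors deposited log2 values made with RMA, per the submitters' processing notes; background settings, RMA version and genome build are not given in the sources used here, nor is whether the experiments were normalized together. Of 35512 probe sets, 21789 had 1 gene symbol, 1621 several and 12102 none in the platform annotation, and the 23410 with a symbol were tested. Each of the 10 members had 1 probe set of its own.

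Differences between arms came from limma 3.58.1 (lmFit and eBayes, R 4.3.3), with 1 fit of the 4 arms per experiment, 1 fit of all 8 groups for response differences, and joint quantile normalization for untreated gestation against untreated virgin mice. P-values were adjusted by Benjamini-Hochberg, and the fits were tested on simulated data. Intervals are 95%. The labels call the samples biological replicates, each from 1 mouse, so differences between arms were judged against the spread between mice. That spread was estimated over all arms of a fit, with eBayes drawing on all probe sets, and precision is limited by the number of arrays. Promoters were scanned with Python 3.11.15 and aligned with Biopython 1.88.

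All 10 members were described in every comparison. From each other list up to 3 called genes with the smallest p per comparison could be named, and likeness was taken for the member with the smallest p in each experiment. Gusb falls outside this rule. The members and lists were chosen with earlier results of these data known. Alternatives were an intensity trend, all probe sets, dim ones left out, array weights, further normalization, covariates, fewer groups, arrays left out and a replicate block.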

Additional observations from a re-analysis of the deposited data

Results flagged for a closer look

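Of 80 sets of 1 gene in 1 group, 6 held a mouse far from the others by Dixon's criterion, and chance flags about 1 in 20. Ces1f was 9.15 in untreated gestation replicate 5, against 9.58 to 9.73 in the other untreated gestation mice. Ces1e was 9.17 in untreated gestation replicate 3, against 8.72 to 8.83. Ces1c was low in 2 gestation mice, at 11.37 in formulation replicate 3 (others 11.60 to 11.72) and at 11.22 in nano ZnO replicate 1 (others 11.57 to 11.73). Ces1b was 9.34 in gestation micro ZnO replicate 1, against 9.73 to 9.84. Ces1g was 9.97 in virgin micro ZnO replicate 6, against 10.48 to 10.77. In 5 of the 6 the mouse belonged to the gestation experiment.

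The response of Ces3a to formulation differed between the experiments, by 1.06 on the log2 scale by the test of the difference itself (limma, adjusted p = 0.0292).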

How the results depend on the processing

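Over all alternatives, 3557 values of single members stayed on the same side of the threshold, 77 lost a call, 25 gained one and 1 reversed. Most of the 3557 belonged to members not called in the main fit, which had no call to lose. The total therefore does not measure how stable the calls were. A value was counted as reversed only where it changed sign and was called in either fit. Values called in neither fit could change sign within the 3557. Ces1b in untreated gestation against virgin mice did so, from -0.17 to 0.11 with each array centred on its median. The reversed value was Ces1c in untreated gestation against untreated virgin mice, at -0.39 with the values as deposited, where 10 members were called against 4 after joint normalization and the median of all probe sets was -0.61. With formulation in virgin mice the count of members fell from 6 to 3 after further quantile normalization and under either covariate (interquartile range, 3 members, or clock score, 3 members), and was 7 with dim probe sets left out or the trend and robust settings. Calls over all probe sets, 6203 in the main fit, were 3971 after further quantile normalization. They were 179 with the interquartile range and 2255 with the clock score. For micro ZnO it was 4 with all probe sets or the interquartile range, without Ces1f. The clock covariate gave 0 members for micro ZnO (from 5) and 0 for nano ZnO (from 6), and 1 for micro ZnO against formulation (from 0). Calls over all probe sets in these 3 fits were 29, 6 and 1850. For nano ZnO against formulation the 1 call was 0 with all probe sets, array weights, further quantile normalization, only the groups compared, the interquartile range and the replicate block. In gestation mice the 1 call with formulation was 0 with the trend and robust settings, all probe sets, further quantile normalization, either covariate and the replicate block, and micro ZnO gained 1 with the interquartile range. The difference in formulation response gave 0 calls with the trend and robust settings, the interquartile range and the replicate block, and 2 with array weights, only the groups compared, or without gestation micro ZnO replicates 3 and 4. The micro ZnO response difference gave 1 with array weights. The cause of these changes was not tested.

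With 1 array left out, counts ran from 5 to 7, 4 to 5 and 6 to 6 for formulation, micro ZnO and nano ZnO in virgin mice, and from 0 to 1 for nano ZnO against formulation. In gestation mice they ran from 0 to 1 for formulation and micro ZnO. They ran from 0 to 2 for the formulation response difference and from 3 to 6 for untreated gestation against virgin mice, and stayed at 0 in the other comparisons. Correlations between mice of the same replicate number in different arms ran from -0.35 to 0.20 in virgin mice. In gestation mice they ran from -0.15 to 0.23, with 3 of 5 pairs over 0.1 for formulation with untreated (0.02 to 0.16). In no comparison were all pairs over 0.1, so the numbers were not taken to pair the mice. With the replicate block Ces2e in gestation mice given formulation was at -1.01 (adjusted p = 0.0832). Fits with the replicate block changed the counts above, gave 4 members instead of 5 for micro ZnO in virgin mice and 5 instead of 4 for untreated gestation against virgin mice. Probe sets near background compress differences, which bears on the 5 dim carboxylesterases and not on the 10 members.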
